A study of Homo sapiens with 9 samples.

Results

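The insulin and insulin-like growth factor (IGF) receptors, their substrates and the IGF-binding proteins were followed at the RNA level in 3 lines of MCF10A cells. They comprised 10 genes chosen by symbol from the 60199 symbols of the count table. These were the receptors IGF1R, IGF2R and INSR, the substrates IRS1 and IRS2, and the binding proteins IGFBP2, IGFBP3, IGFBP5, IGFBP6 and IGFBP7. All 10 genes had at least 1 count, and 9 of them, all but IGFBP5, passed the filter on low counts and were tested. MCF10A is an immortalised, non-tumorigenic line of human mammary epithelial cells, which by the study's account lacks CDKN2A and carries extra copies of MYC, and all 3 lines come from it. The control line, MCF10A-CT (CT), was not transformed and was grown without added cytokines. MC26 cells descend from the unsorted line after prolonged culture with BMP2 and IL6. M1B26 cells descend from a fraction sorted for the BMP receptor BMPR1B that was cultured with the same cytokines and expanded from 3 soft-agar clones. Each line was represented by 3 cultures that the submitters called independent. BMP2 and IL6 were still in the medium of MC26 and M1B26, so a response to the cytokines and the transformed state cannot be told apart, nor can the sorting and cloning of M1B26 be told apart from either. The medium of all 3 lines held insulin, horse serum, hydrocortisone, cholera toxin and EGF.

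Insulin and the IGFs bind receptor tyrosine kinases, INSR and IGF1R, which recruit the docking proteins IRS1 and IRS2 and through them PI3K and AKT. AKT keeps the FOXO transcription factors out of the nucleus, and INSR itself is known as a FOXO target. IGF2R carries IGF2 and phosphomannosyl-tagged enzymes to the lysosome and does not signal as a kinase. The binding proteins are secreted, hold IGFs away from or close to their receptors, and are cut by proteases of the pappalysin family. In the mammary gland the pathway is known for its part in ductal growth.

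Total counts ranged from 21425118 in CT replicate 2 to 80076597 in CT replicate 3. Levels are given as CPM, the count of a gene scaled to a library size of 1000000, with library sizes scaled by the TMM factors of edgeR, and 3 counts, taken as the limit of detection, stood for 0.0366 to 0.131 CPM. CT replicate 2 was the shallowest library, so the low values of IGFBP2, IGFBP3 and IGFBP5 are least precise there. Summed levels of 5 basal epithelial markers (KRT5, KRT14, KRT17, TP63 and ITGA6) were 6551 to 8197 CPM in CT, 7753 to 9766 in MC26 and 6457 to 6756 in M1B26, and all 5 passed the filter. The 5 luminal markers summed to 969 to 1111 CPM in CT, 681 to 715 in MC26 and 944 to 1012 in M1B26. Of 8 fibroblast markers the sums were 37.4 to 37.8 CPM, 17.1 to 56.8 and 28.5 to 39.9 in that order of lines, and COL1A2, COL3A1 and THY1 had at most 3 counts in every library. The 6 endothelial markers summed to 8.15 to 8.25 CPM, 2.19 to 3.76 and 3.65 to 6.59, with CDH5, VWF and EMCN at most at 3 counts. The 6 leukocyte markers summed to 7.03 to 11.1 CPM, 9.74 to 17.9 and 34.0 to 47.9, with PTPRC and CD3E at most at 3 counts. Passing the filter were 4 of 5 luminal, 4 of 8 fibroblast, 3 of 6 endothelial and 1 of 6 leukocyte markers. In such bulk RNA a smaller share of cells of 1 type and less RNA per cell cannot be told apart.

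**Figure D1:**
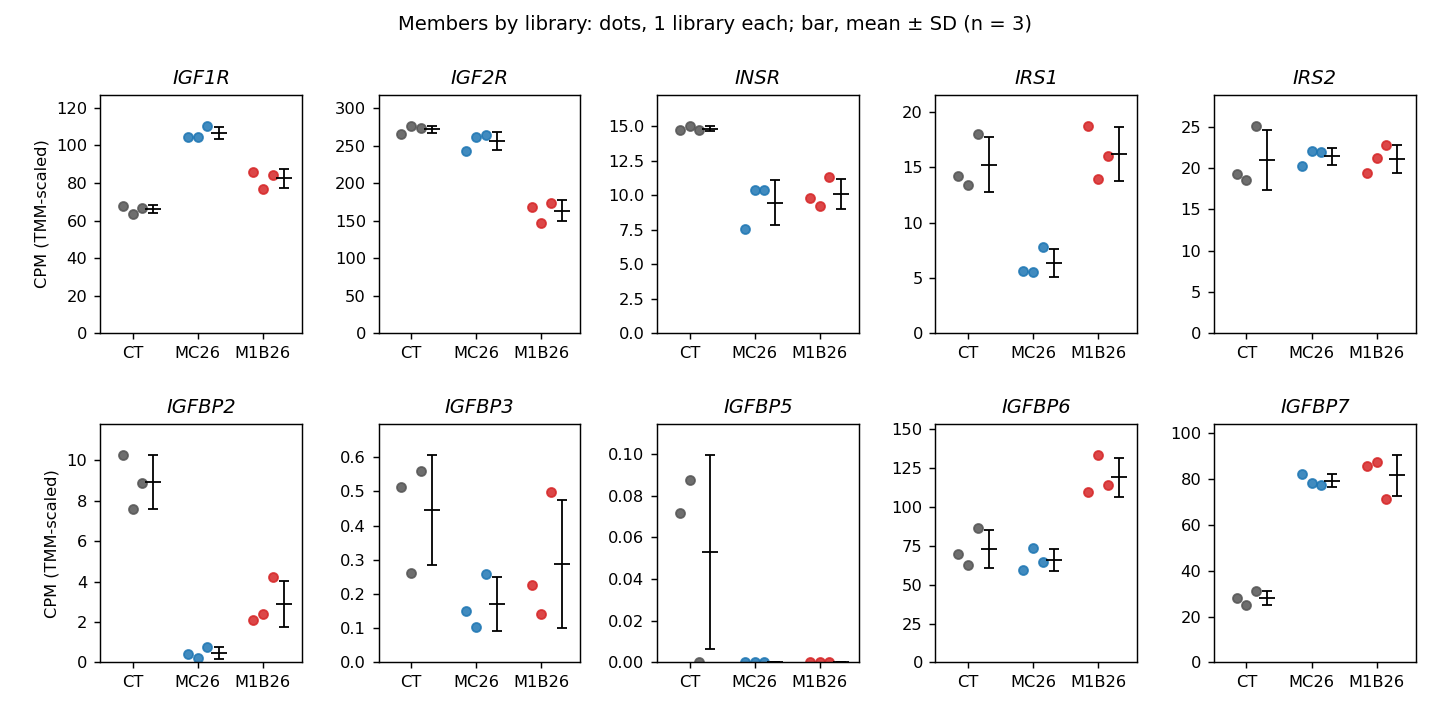
Level of each of the 10 genes in CPM (vertical axes, each from 0, library sizes scaled by TMM) in the CT, MC26 and M1B26 libraries. Each dot is 1 library and the bar beside it is the mean ± SD of the 3; IGF1R was highest and IRS1 and IGFBP2 were lowest in the MC26 libraries, IGFBP6 was highest in those of M1B26, and IGFBP7 was higher in both lines than in CT.

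In MC26 against CT, 6 of the 9 tested genes changed at an adjusted p under 0.05 in edgeR's quasi-likelihood test, whereas 38.7% of all 15717 genes tested did. IGF1R and IGFBP7 rose, so 2 genes were higher beside a background of 18.8%, and INSR, IRS1, IGFBP2 and IGFBP3 fell, so 4 were lower beside a background of 19.9%. In M1B26 against CT, 6 of the 9 changed beside 48.9% of all genes. There IGF1R, IGFBP6 and IGFBP7 rose (3 genes, background 25.2%) and IGF2R, INSR and IGFBP2 fell (3 genes, background 23.7%). Between M1B26 and MC26, 5 of the 9 differed beside 39.5% of all genes. IRS1, IGFBP2 and IGFBP6 were higher in M1B26 (3 genes, background 21.2%) and IGF1R and IGF2R were lower (2 genes, background 18.4%). The median log2 fold change of the 9 genes was -0.16 in MC26 against CT, 0.0037 in M1B26 against CT and 0.096 in M1B26 against MC26, where the medians of all genes were 0.0010, 0.0019 and -0.0014. The comparisons of both lines with CT share the CT libraries, and their values are therefore given side by side. The CPM ranges of the groups were apart in every one of these calls. So large a share of all genes changed that the counts say little about the family, and the values of the single genes follow.

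**Figure D2:**
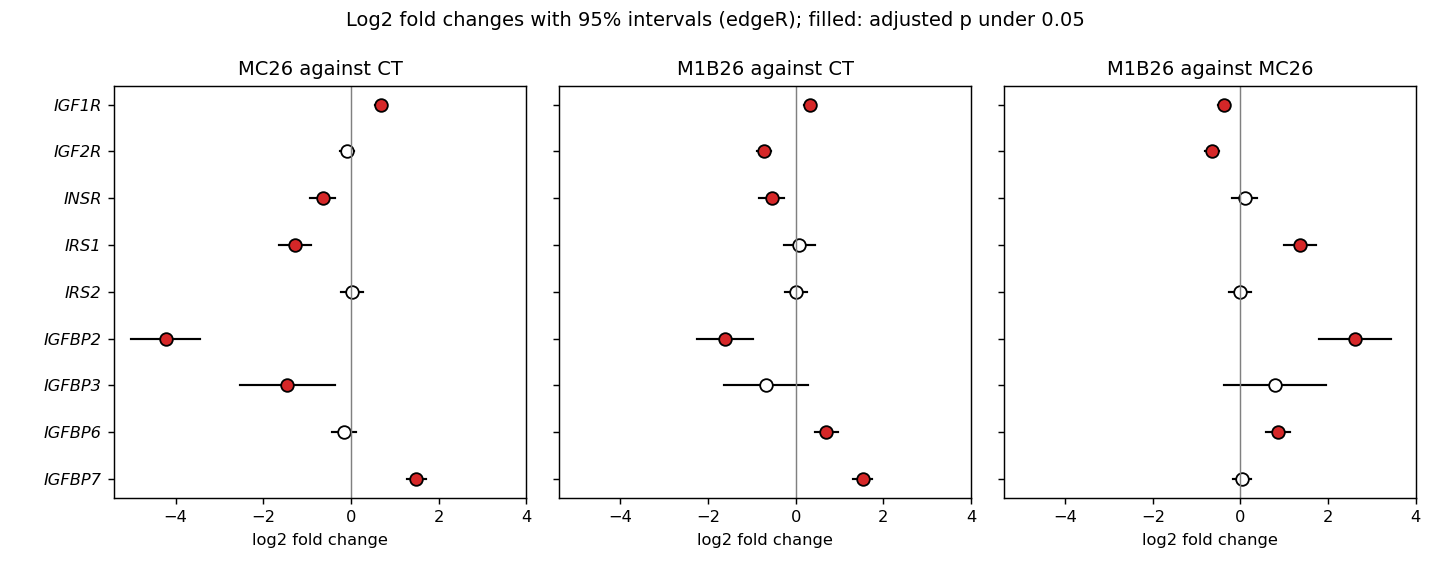
Log2 fold change (horizontal axis) of the 9 tested genes in the 3 comparisons, with the 95% interval of edgeR's fit as a line; filled circles had an adjusted p under 0.05. IGFBP2 had the widest excursion, -4.23 in MC26 and -1.61 in M1B26 against CT, while IRS2 lay between -0.020 and 0.024 in all 3 panels.

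The ligands were all but absent. IGF1 and INS had 0 counts in all 9 libraries, which allows at most 0.131 CPM in the shallowest. IGF2 had 4, 1 and 4 counts in CT replicates 1 to 3, 3, 2 and 3 in MC26 and 0, 1 and 1 in M1B26, too few to be tested. The receptors and binding proteins described here were therefore measured in cells whose own IGF transcripts were at or near the limit of detection, in a medium with insulin.

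IGF1R, the receptor tyrosine kinase for IGF1 and IGF2 (chr15:98648539-98964530, plus strand, GRCh38), had 67.8, 63.7 and 66.5 CPM in CT replicates 1 to 3. It had 104.7, 104.6 and 110.5 CPM in MC26 and 86.1, 77 and 84.3 CPM in M1B26. The 3 groups did not overlap, with CT lowest, M1B26 between and MC26 highest. In edgeR's test IGF1R rose 1.61-fold in MC26 (log2 fold change 0.69, SE 0.065, adjusted p = 1.78e-05). The rise in M1B26 was 1.25-fold (log2 fold change 0.32, SE 0.065, edgeR adjusted p = 0.00199). The level in M1B26 was 1.29-fold lower than in MC26 (edgeR adjusted p = 0.00124).

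INSR, the insulin receptor (chr19:7112255-7294414, minus strand), went the other way. It had 14.7, 15 and 14.7 CPM in CT, 7.58, 10.4 and 10.4 CPM in MC26, and 9.82, 9.18 and 11.3 CPM in M1B26. Every library of both lines lay under every CT library, whose values spread by an SD of only 0.175 CPM. The fall was 1.57-fold in MC26 (log2 fold change -0.65, SE 0.13, edgeR adjusted p = 0.00234) and 1.47-fold in M1B26 (log2 fold change -0.55, SE 0.13, edgeR adjusted p = 0.00403). No difference between the lines passed the test, with a 95% interval of -0.19 to 0.38 for the log2 fold change of M1B26 against MC26.

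Because both receptors of the tyrosine kinase pair were measured in each library, the ratio of their CPM does not depend on the scaling of libraries. IGF1R to INSR stood at 4.6, 4.24 and 4.53 in CT, at 13.8, 10.1 and 10.6 in MC26 and at 8.76, 8.38 and 7.47 in M1B26. The ratio was thus lowest in the 3 CT libraries and highest in the 3 MC26 libraries, with no overlap. On the log2 scale its mean exceeded that of CT by 1.35 for MC26 and by 0.88 for M1B26, while the mean of M1B26 lay 0.48 below that of MC26. Each of these gave p = 0.1 in a 2-sided exact permutation test (0.12 after Benjamini-Hochberg adjustment over 6 ratio tests), the smallest p that 3 libraries against 3 allow. The ratio is one of CPM and not of molecules, since the transcripts differ in length.

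IGF2R, the clearance receptor of IGF2 (chr6:159969082-160113507, plus strand), was the most highly counted of the receptors and changed in M1B26. Its CPM were 266.0, 275.5 and 273.1 in CT, 242, 261 and 264 in MC26, and 169, 147 and 174 in M1B26. The M1B26 libraries lay well below all others, and the MC26 libraries lay just below those of CT. IGF2R fell 1.66-fold in M1B26 against CT (log2 fold change -0.73, SE 0.074, edgeR adjusted p = 1.92e-05) and was 1.57-fold lower in M1B26 than in MC26 (edgeR adjusted p = 9.02e-05). In MC26 against CT the log2 fold change was -0.086 with a 95% interval of -0.25 to 0.075 (edgeR adjusted p = 0.380). Its exons share 571 bases with the pseudogene CHP1P2 on the same strand, whose reads the counting could have assigned to either.

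IRS1, a docking protein of both tyrosine kinase receptors (chr2:226731312-226799820, minus strand), separated the transformed lines from each other. It had 14.2, 13.4 and 18.1 CPM in CT and 18.7, 13.9 and 16.0 CPM in M1B26, but 5.62, 5.57 and 7.81 CPM in MC26. The MC26 libraries were all below the other 6, while the CT and M1B26 libraries overlapped. IRS1 fell 2.41-fold in MC26 against CT (log2 fold change -1.27, SE 0.17, edgeR adjusted p = 0.000187). It was 2.56-fold higher in M1B26 than in MC26 (log2 fold change 1.35, SE 0.17, edgeR adjusted p = 0.000145). For M1B26 against CT the log2 fold change was 0.083 with a 95% interval of -0.27 to 0.43 (edgeR adjusted p = 0.690).

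IRS2, the second widely expressed substrate (chr13:109752695-109786583, minus strand), showed no difference that passed the test. It had 19.2, 18.6 and 25.1 CPM in CT, 20.3, 22.1 and 22.0 in MC26 and 19.4, 21.2 and 22.8 in M1B26, so the groups overlapped throughout. Its log2 fold change was 0.024 in MC26 (95% interval -0.23 to 0.28, edgeR adjusted p = 0.893) and 0.0037 in M1B26 against CT (-0.25 to 0.26, edgeR adjusted p = 0.983). The ratio of IRS1 to IRS2 in CPM was 0.738, 0.721 and 0.718 in CT, 0.277, 0.252 and 0.355 in MC26, and 0.965, 0.655 and 0.702 in M1B26. MC26 lay apart from both other lines, and CT lay within the range of M1B26. The log2 ratio was 1.31 lower in MC26 than in CT, and M1B26 exceeded MC26 by 1.39. Both gave an exact permutation p = 0.1, adjusted 0.12. For M1B26 against CT it differed by 0.072 (exact permutation p = 1).

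The sequences before the start sites of INSR, IRS1 and IGFBP2, which fell in MC26, are shown because BMP2 and IL6 act through SMAD and STAT factors and insulin through FOXO factors. They are the RefSeq windows of 250 bases before the start site on GRCh38.p14, in the direction of transcription, at chr19:7294415-7294664 for INSR, chr2:226799821-226800070 for IRS1 and chr2:216633170-216633419 for IGFBP2, for which the one of 3 RefSeq windows at the start of the canonical transcript was taken. Capitals mark matches, on either strand, to GGCGCC, a motif bound by SMADs of the BMP branch, to GTAAACA, a FOXO motif, or to TTCNNNGAA, a STAT motif.
INSR: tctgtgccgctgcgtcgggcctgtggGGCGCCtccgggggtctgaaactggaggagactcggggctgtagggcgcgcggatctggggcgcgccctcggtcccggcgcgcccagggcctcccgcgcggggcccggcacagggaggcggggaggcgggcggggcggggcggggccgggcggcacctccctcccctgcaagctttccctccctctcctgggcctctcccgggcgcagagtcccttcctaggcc
IRS1: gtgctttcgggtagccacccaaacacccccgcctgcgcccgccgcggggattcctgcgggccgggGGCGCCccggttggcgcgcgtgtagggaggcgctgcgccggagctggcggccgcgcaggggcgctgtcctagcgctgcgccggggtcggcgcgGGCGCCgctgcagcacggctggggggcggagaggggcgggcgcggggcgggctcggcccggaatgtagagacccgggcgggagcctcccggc
IGFBP2: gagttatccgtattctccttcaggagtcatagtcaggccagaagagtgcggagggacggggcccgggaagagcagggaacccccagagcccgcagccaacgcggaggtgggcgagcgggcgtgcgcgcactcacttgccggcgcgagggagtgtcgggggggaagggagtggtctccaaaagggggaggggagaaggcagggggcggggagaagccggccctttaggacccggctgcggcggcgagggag
The INSR window held GGCGCC once, 224 bases before the start, the IRS1 window held it 185 and 92 bases before the start, and the IGFBP2 window held none of the 3 motifs, nor did its 2 other windows. Windows were found for 9 of the 10 genes, IGFBP7 being the exception. GGCGCC was in those of 4 genes, among them IGF1R, which rose in MC26, and IRS2, which did not pass the test. GTAAACA was in that of IGFBP6 alone, a window in which 231 of the 250 bases are annotated as exon. TTCNNNGAA was in none of the 9. Over all 35114 RefSeq windows of this length, 16.4% held GGCGCC, 2.98% GTAAACA and 6.57% TTCNNNGAA. The IRS1 and INSR windows were 80.8% and 78.4% G and C, and a match in such sequence is a description and not a binding site.

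IGFBP2, a secreted protein that binds both IGFs (chr2:216632828-216664436, plus strand), had the largest differences of the 9 tested genes. Its CPM were 10.3, 7.60 and 8.90 in CT, 0.398, 0.235 and 0.776 in MC26, and 2.10, 2.41 and 4.21 in M1B26. In MC26 these values rested on 16, 9 and 33 counts, against 719, 174 and 730 counts in CT. The groups did not overlap and stood in the order CT, M1B26, MC26. IGFBP2 fell 18.8-fold in MC26 (log2 fold change -4.23, SE 0.36, edgeR adjusted p = 9.36e-06) and 3.06-fold in M1B26 (log2 fold change -1.61, SE 0.29, edgeR adjusted p = 0.000921). It was 6.12-fold higher in M1B26 than in MC26 (log2 fold change 2.61, SE 0.37, edgeR adjusted p = 0.000375).

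IGFBP5, a binding protein known from the involuting mammary gland, lies tail to tail with IGFBP2 at a distance of 7668 bases (chr2:216672105-216695549, minus strand). It had 5, 2 and 0 counts in CT replicates 1 to 3 and 0 counts in all 6 libraries of MC26 and M1B26. A count of 0 allows up to 0.0784 CPM in MC26 replicate 2 and up to 0.071 CPM in M1B26 replicate 2, and the highest CT library stood at 0.0873 CPM. A difference was therefore not detectable at this depth, and no fold change is given. Part of its exons, 487 bases, also overlaps DIRC3-AS1 on the opposite strand.

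IGFBP3, the main carrier of IGFs in serum (chr7:45912245-45921874, minus strand), was detected at a low level. It had 0.514, 0.262 and 0.561 CPM in CT, from 36, 6 and 46 counts, and 0.149, 0.105 and 0.259 CPM in MC26, from 6, 4 and 11 counts. In M1B26 it had 0.225, 0.142 and 0.498 CPM, from 10, 6 and 27 counts. The lowest CT library (0.262) lay just above the highest of MC26 (0.259), and M1B26 overlapped both. In MC26 against CT the log2 fold change was -1.45 with an SE of 0.49 (edgeR adjusted p = 0.0369). That call was lost with DESeq2 (adjusted p = 0.0669) and when CT replicate 1 or 3, MC26 replicate 1 or 2, or M1B26 replicate 1 was left out, with edgeR adjusted p up to 0.130. In M1B26 against CT the log2 fold change was -0.68 (95% interval -1.64 to 0.29, edgeR adjusted p = 0.225), and it passed without M1B26 replicate 3 (log2 fold change -1.36, edgeR adjusted p = 0.0355). The neighbouring family member IGFBP1, 18584 bases away, had 0 counts in all 9 libraries.

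IGFBP7, a relative with low affinity for IGFs (chr4:57030773-57110385, minus strand), had 28.2, 25.2 and 31.1 CPM in CT. It had 82.5, 78.4 and 77.5 CPM in MC26 and 85.9, 87.7 and 71.6 CPM in M1B26. The lowest of the 6 libraries of the transformed lines stood at 71.6 CPM and the highest CT library at 31.1 CPM. IGFBP7 rose 2.81-fold in MC26 (log2 fold change 1.49, SE 0.097, edgeR adjusted p = 1.54e-06) and 2.89-fold in M1B26 (log2 fold change 1.53, SE 0.097, edgeR adjusted p = 8.79e-07). The difference between these lines did not pass the test, with a log2 fold change of 0.040 and a 95% interval of -0.17 to 0.25. Its exons overlap POLR2B and IGFBP7-AS1 on the opposite strand over 354 bases, and whether strand was used in counting is not given in the sources used here.

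IGFBP6, which prefers IGF2 over IGF1 (chr12:53097436-53102345, plus strand), rose in M1B26. Its CPM were 69.8, 62.7 and 86.3 in CT, 59.3, 73.2 and 64.4 in MC26, and 109, 133 and 114 in M1B26. The M1B26 libraries were above all 6 others, which overlapped among themselves. IGFBP6 rose 1.63-fold in M1B26 against CT (log2 fold change 0.70, SE 0.12, edgeR adjusted p = 0.000830) and was 1.81-fold higher in M1B26 than in MC26 (edgeR adjusted p = 0.000413). For MC26 against CT the log2 fold change was -0.16 with a 95% interval of -0.43 to 0.12 (edgeR adjusted p = 0.347).

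Levels of different genes were compared as CPM per kilobase of exonic length (GENCODE v44). The make-up of the 7 genes IGFBP1 to IGFBP7, which include the low-affinity relative IGFBP7, was then taken as the share of each in their summed CPM per kilobase. IGFBP6 held 74.1% ± 1.44 (SD, n = 3) in CT, 53.5% ± 3.22 in MC26 and 63.1% ± 2.01 in M1B26. IGFBP7 held 20.1% ± 0.880 in CT, 45.3% ± 3.24 in MC26 and 30.4% ± 2.77 in M1B26. These 2 genes made up most of the family in every library, and in both transformed lines the IGFBP7 share was higher, and the IGFBP6 share lower, than in any CT library. IGFBP2 held 2.6% ± 0.420 in CT, 0.110% ± 0.0669 in MC26 and 0.444% ± 0.195 in M1B26. IGFBP4 held 3.04% ± 0.202, 1.02% ± 0.254 and 6.04% ± 1.12 in the same order, and IGFBP3 and IGFBP5 stayed under 1% everywhere. The summed level was 73.0 ± 10.8 CPM per kilobase in CT, 91.0 ± 4.38 in MC26 and 139.7 ± 11.7 in M1B26, so the IGFBP6 share was lower in M1B26 than in CT although its own level rose. The shares are descriptions without a test. With the length of the longest transcript in place of all exons, IGFBP6 and IGFBP7 held nearly equal shares in MC26, 49.5% and 49.6%.

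**Figure D3:**
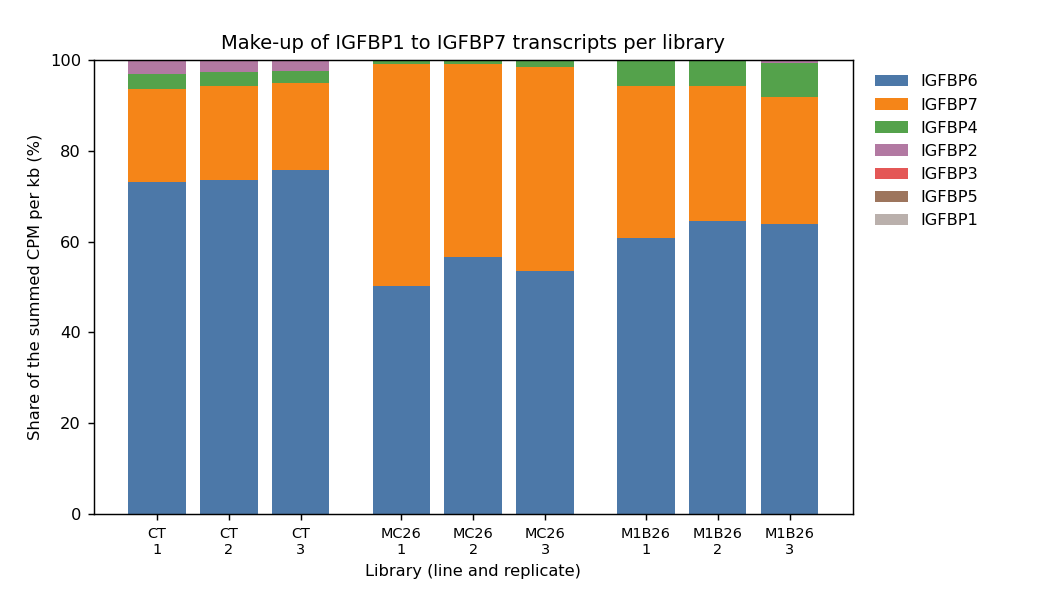
Share (%, vertical axis) of each of IGFBP1 to IGFBP7 in their summed CPM per kilobase, 1 bar per library. IGFBP6 makes up 73.0% to 75.8% of the CT bars, 50.2% to 56.7% of the MC26 bars and 60.8% to 64.6% of the M1B26 bars, with IGFBP7 filling most of the rest.

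Over all 10 genes the order of mean CPM per kilobase in CT ran from IGFBP6 (54.2) through IGFBP7 (14.6), IGF2R (12), IGF1R (4.73), IRS2 (2.57), IGFBP2 (1.88), IRS1 (1.52), INSR (1.37) and IGFBP3 (0.0976) to IGFBP5 (0.00818). The first 5 places were held by the same genes in the same order in MC26 (48.8, 41.2, 11.3, 7.65 and 2.63) and in M1B26 (88.3, 42.3, 7.23, 5.91 and 2.59). Below them the order differed, and IGFBP2 moved from place 6 in CT to place 8 in both transformed lines. In MC26 INSR (0.873) and IRS1 (0.632) preceded IGFBP2 (0.0990) and IGFBP3 (0.0374), and in M1B26 IRS1 (1.62) and INSR (0.932) preceded IGFBP2 (0.613) and IGFBP3 (0.0632). By exonic length, neighbours whose ranges over libraries overlapped, and whose order is thus not settled, were IGFBP2 with IRS1 and IRS1 with INSR in CT, INSR with IRS1 and IGFBP2 with IGFBP3 in MC26, and INSR with IGFBP2 in M1B26. With the longest transcript as length the first 5 kept their order, but some stood nearly level. In CT these were IGFBP7 (19.7) and IGF2R (19.1), and in MC26 IGFBP6 (55.8) and IGFBP7 (55.7).

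**Figure D4:**
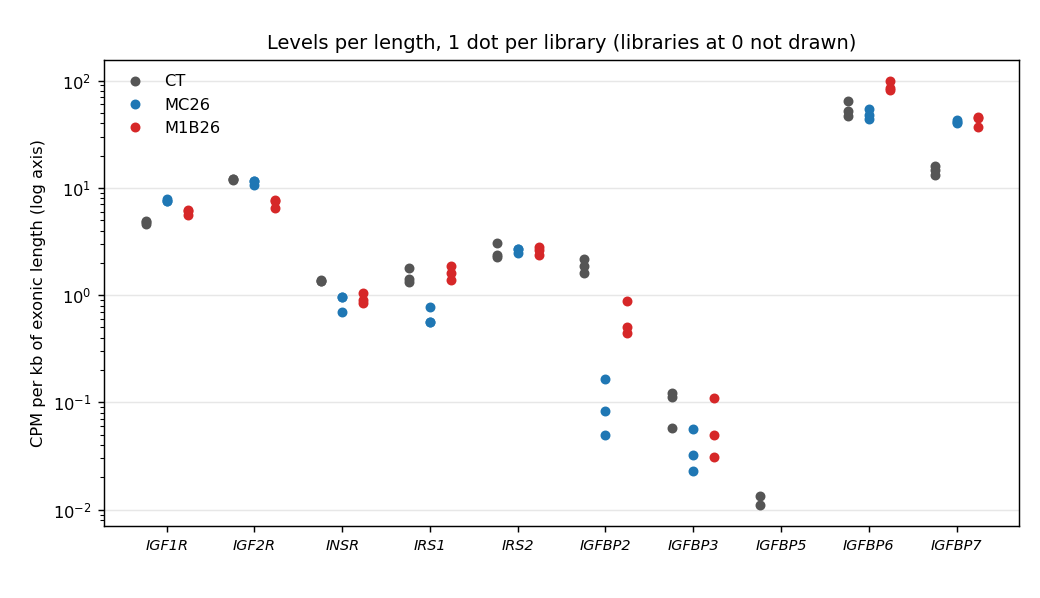
CPM per kilobase of exonic length (vertical log axis) of the 10 genes, 1 dot per library, coloured by line; libraries with 0 counts, as for IGFBP5 in MC26 and M1B26, cannot be drawn on a log axis. IGFBP6, IGFBP7, IGF2R, IGF1R and IRS2 hold the upper 5 places in each line, and IGFBP2 spans the widest range.

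For the 3 genes with the widest range of group means of log2(CPM + 0.1), the genes of most similar pattern were sought among the 10634 to 10635 other tested genes that averaged 5 CPM or more. Likeness was the root mean square difference over the 9 libraries of the same log2 values centred on their mean, given as a description. For IGFBP2, which ranged over 4.09 log2 units, SORT1 was closest at 0.364 log2 units (45.7, 3.58 and 15.6 CPM in CT, MC26 and M1B26), followed by SLC27A2 at 0.439 and KRT15 at 0.444. For IGFBP7, which ranged over 1.53 units, COL27A1 (0.117), CARHSP1 (0.128) and PROCR (0.135) were closest. For IRS1, which ranged over 1.35 units, FZD2 (0.183) and H2AW (0.186) were among the 3 closest.

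A list of 67 further genes of the pathway was read beside the 10, of which 58 were tested. In MC26 against CT, 9 of the 58 rose and 22 fell (18.8% and 19.9% of all genes), with a median log2 fold change of -0.16. In M1B26 against CT, 12 rose and 25 fell (25.2% and 23.7% of all genes), with a median of -0.18. Among those that rose, IGFBP4, GRB2, SOCS3, RPTOR and RPS6KB1 lie on chromosome 17, where 543 of the 843 tested genes rose in M1B26. The part of the chromosome in these rises was not tested. Between M1B26 and MC26, 12 were higher and 9 lower in M1B26 (21.2% and 18.4% of all genes; median -0.026), and these 21 calls are no larger a share than the 39.5% of all genes.

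IGFBP4, the remaining binding protein above the filter (chr17:40443450-40457725, plus strand), changed in opposite directions. It had 4.97, 4.37 and 5.23 CPM in CT, 1.64, 1.91 and 2.59 in MC26 and 15.9, 18.2 and 21.4 in M1B26, without overlap. Its log2 fold change was -1.26 in MC26 (SE 0.17, edgeR adjusted p = 0.000276) and 1.92 in M1B26 against CT (SE 0.16, edgeR adjusted p = 4.66e-06). Beside this value, the median over the 843 tested genes of chromosome 17 was 0.48 in M1B26 against CT and 0.0011 in MC26 against CT, and the part of the chromosome in the change of IGFBP4 was not tested. None of the 10 genes lies on that chromosome.

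The proteases that cut binding proteins, PAPPA and PAPPA2, and their inhibitors the stanniocalcins, STC1 and STC2, were all called in both lines against CT. In each line 2 of these 4 genes rose and 2 fell, beside 38.7% of all genes changed in MC26 and 48.9% in M1B26. The call of STC1 in MC26 did not hold in every alternative, as given below. PAPPA, which cleaves IGFBP4, had 7.31 to 8.47 CPM in CT, 1.02 to 2.54 in MC26 and 1.23 to 2.69 in M1B26. It fell by 2.35 on the log2 scale in MC26 (SE 0.35, edgeR adjusted p = 0.000452) and by 2.17 in M1B26 (SE 0.34, edgeR adjusted p = 0.000414). PAPPA2, which cleaves IGFBP3 and IGFBP5, rose from 5, 0 and 1 counts in CT to 19, 17 and 14 in MC26 and 14, 13 and 27 in M1B26. Its edgeR adjusted p was 0.000683 in MC26 and 0.000558 in M1B26. Its fitted log2 fold changes (3.51 and 3.38) rest on those few counts and were 5.10 and 4.96 without CT replicate 1, and 2.94 and 2.80 without CT replicate 3.

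STC1 had 2.11, 1.44 and 2.27 CPM in CT, 2.24, 4.94 and 6.56 in MC26 and 17.2, 16.4 and 34.6 in M1B26. It rose by a log2 fold change of 3.49 in M1B26 (SE 0.39, edgeR adjusted p = 4.03e-05). In MC26 the groups overlapped and the log2 fold change was 1.18 (SE 0.40, edgeR adjusted p = 0.0368), a call lost without any 1 of the CT libraries or without MC26 replicate 2 or 3 (edgeR adjusted p up to 0.146). STC2, given to complete the group, fell by 0.71 on the log2 scale in MC26 (edgeR adjusted p = 0.0112) and by 0.76 in M1B26 (edgeR adjusted p = 0.00619).

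Of 11 tested adaptors and receptor-level inhibitors, 5 rose and 1 fell in MC26, and 4 rose and 2 fell in M1B26 against CT, beside 38.7% and 48.9% of all genes changed. SOCS3, an inhibitor of cytokine receptors that also binds the insulin receptor and is induced by STAT3, had 4.80 to 6.40 CPM in CT. It had 27.3 to 35.8 CPM in MC26 and 29.7 to 34.9 CPM in M1B26, all above CT. It rose by a log2 fold change of 2.39 in MC26 (SE 0.14, edgeR adjusted p = 7.18e-07) and 2.44 in M1B26 (SE 0.14, edgeR adjusted p = 3.84e-07), and it too lies on chromosome 17. SOCS1 stood at 0.289 ± 0.185 CPM (SD, n = 3) in CT, 0.707 ± 0.193 in MC26 and 0.437 ± 0.0443 in M1B26. Its log2 fold change of 1.08 in MC26 passed (SE 0.37, edgeR adjusted p = 0.0396) but kept its call in only 6 of 15 alternatives (adjusted p up to 0.138), and it lost the call when any 1 of CT replicates 1 and 2, MC26 replicates 1 and 2 or the M1B26 libraries was left out. In M1B26 it was 0.39 (edgeR adjusted p = 0.430).

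Of the 24 genes of PI3K, AKT and mTORC1 signalling, 2 rose and 6 fell in MC26, and 4 rose and 12 fell in M1B26 against CT. The 8 calls in MC26 are a smaller share than the 38.7% of all genes, and the 16 in M1B26 stand beside 48.9%. PIK3R3, a regulatory subunit of PI3K, had 38.7 to 45.7 CPM in CT, 21.9 to 27.1 in MC26 and 19.3 to 23.4 in M1B26, and fell by 0.85 and by 1.0 on the log2 scale (edgeR adjusted p = 0.000133 and 2.76e-05). PHLPP2, a phosphatase of AKT, had 40.8 to 48.3 CPM in CT, 33.3 to 37.8 in MC26 and 18.9 to 23.8 in M1B26. It fell by 1.03 on the log2 scale in M1B26 against CT (SE 0.098, edgeR adjusted p = 1.33e-05). In MC26 its log2 fold change was -0.30 (edgeR adjusted p = 0.0286), which did not pass without CT replicate 1 or 2 or MC26 replicate 2 or 3 (adjusted p up to 0.0843).

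Of 16 FOXO factors and FOXO target genes, 12 fell in MC26 (median of the 16, -0.67) and 9 fell in M1B26 against CT (median -0.43), beside all-gene medians of 0.0010 and 0.0019. Of all genes, 19.9% and 23.7% fell. The factors FOXO1, FOXO3 and FOXO4 were themselves called lower in both lines and are part of both counts, which are thus not counts of targets alone. The list was chosen with earlier results of these data known, so these counts are a description and not a test. Without 1 library the number of the 16 called ran from 8 to 13 in MC26 and from 6 to 9 in M1B26. FOXO1 had 76.9, 82.4 and 77.7 CPM in CT, 32.04, 49.6 and 65.2 in MC26 and 37.3, 42.0 and 35.7 in M1B26. The CT libraries were highest, and those of MC26 differed among themselves more than in the other lines. FOXO1 fell by 0.69 in MC26 (SE 0.19, edgeR adjusted p = 0.0145), with a log2 fold change of -0.46 without MC26 replicate 1 and -0.95 without MC26 replicate 3, and by 1.04 in M1B26 on the log2 scale (SE 0.19, edgeR adjusted p = 0.00106). FOXO3 had 98.1 to 99.4 CPM in CT, 55.7 to 69.6 in MC26 and 50.01 to 61.6 in M1B26, and fell by 0.65 and by 0.86 (edgeR adjusted p = 0.000378 and 3.94e-05).

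Among the targets, PDK4, a kinase that shuts off pyruvate dehydrogenase, fell from 22.3, 23.3 and 21.03 CPM in CT to 0.398, 1.23 and 2.52 in MC26 and 1.35, 1.80 and 3.90 in M1B26. Its log2 fold changes were -3.99 (SE 0.47, edgeR adjusted p = 8.05e-05) and -3.21 (SE 0.43, edgeR adjusted p = 0.000139). They were -4.78 without MC26 replicate 3 and -3.81 without M1B26 replicate 3. KLF15, a transcription factor of glucose and amino acid metabolism, had 141, 26 and 155 counts in CT, 2, 1 and 5 in MC26 and 10, 15 and 19 in M1B26. It fell in both lines, with log2 fold changes of -4.66 in MC26 (edgeR adjusted p = 1.22e-05; -5.41 without MC26 replicate 3) and -2.46 in M1B26 (edgeR adjusted p = 9.74e-05). PDK4 and KLF15 fell furthest of the 16 genes. They count as targets by the list alone, and the part of FOXO factors in their fall was not tested. CDKN1B, CCNG2 and TRIB1 passed edgeR's test against CT in neither line. For CDKN1B the log2 fold change was 0.0041 (MC26) and -0.12 (M1B26), for CCNG2 0.21 and -0.15, and for TRIB1 -0.19 and -0.12. TXNIP did not pass in MC26, nor did SESN1, SESN3, CITED2 and MXI1 in M1B26. Between the lines 5 of the 16 were called, all higher in M1B26 than in MC26, beside 39.5% of all genes called and 21.2% higher. The number of the 16 called in either direction ran from 1 to 9 over the alternatives. It was 1 to 3 without CT replicate 1 or 3, MC26 replicate 1 or 2 or any 1 M1B26 library, and 8 without MC26 replicate 3. INSR, itself known as a FOXO target, fell in both lines as given above, whereas IRS2, also known as one, did not pass the test in either.

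**Figure D5:**
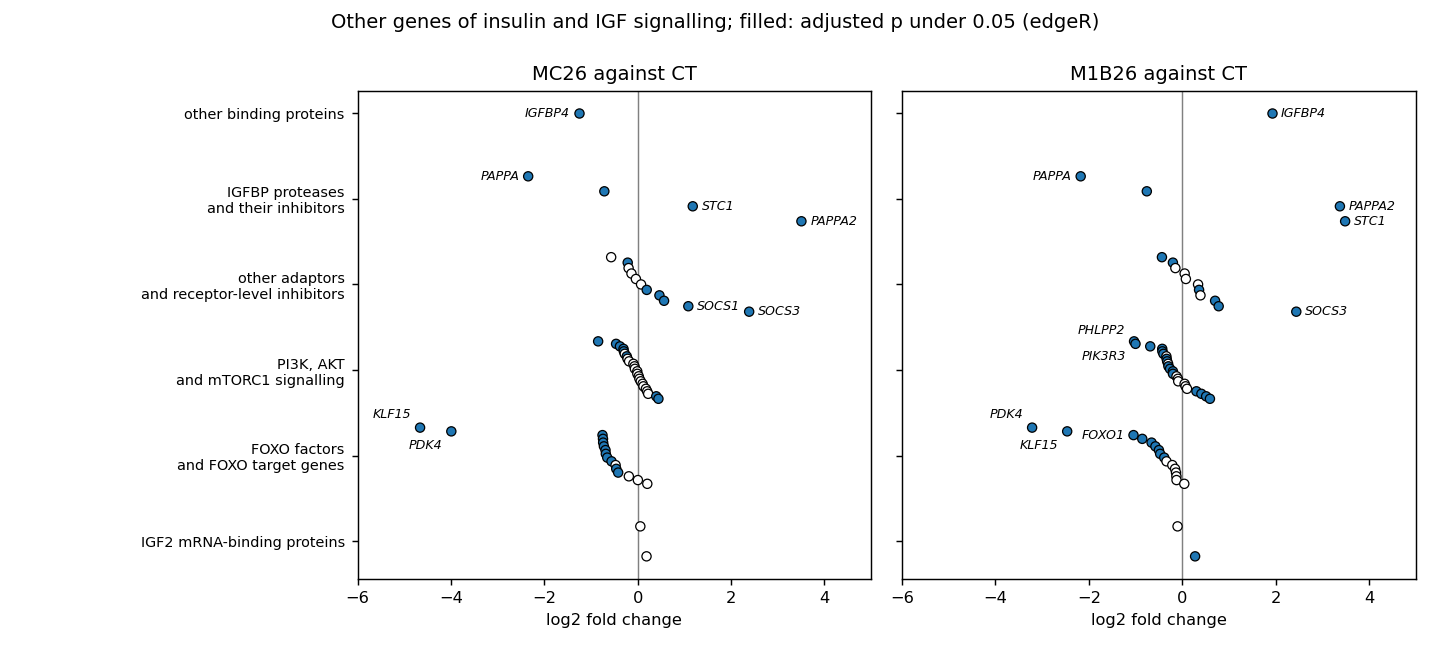
Log2 fold change against CT (horizontal axes) of the 58 tested pathway genes by functional group, 1 circle per gene, for MC26 (left) and M1B26 (right). Filled circles had an edgeR adjusted p under 0.05 and genes with an absolute value of at least 1 are named; PDK4 and KLF15 lie far to the left in both panels, and IGFBP4 lies on opposite sides of 0.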

How the data were processed

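Poly-A RNA of 9 cultures, 3 each of CT, MC26 and M1B26, was sequenced in paired-end mode. The deposited table holds whole-number counts for each gene symbol, not normalized. For alignment to GRCh38 the authors used STAR 2.7.3a (GENCODE v33), and the methods and the processing notes of the submitters name Salmon 1.1.0, on protein-coding genes, for quantification. The deposited counts are whole numbers and include non-coding genes, so whether that step made this table is not known, and its use of strand and its handling of multiply aligned reads are not given in the sources used here. The deposited counts were analysed as they stood, and CPM, ratios and shares were computed from them. The counts can split wrongly between overlapping genes, which are named beside the results.

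Samples were grouped and numbered by their titles. In R 4.3.3, edgeR 4.0.16 was run on genes passing filterByExpr (minimum count 10; 15717 genes), with TMM factors (0.969 to 1.07), 1 quasi-likelihood fit with line as its only term over all 9 libraries, and 2-sided glmQLFTest for the 3 comparisons. Benjamini-Hochberg adjustment was over all genes tested, and an adjusted p under 0.05 was called. The biological coefficient of variation was 10.4%. The p-values measure only the spread between these libraries, whether or not the cultures were fully separate. Each line is 1 derivation, so the spread between derivations was not measured. Total counts of 21425118 to 80076597 set the limits of 3 counts, which cover counting error only. Ratios were compared by exact permutation tests (SciPy 1.17.1). Exonic lengths, positions and overlaps came from GENCODE v44 on GRCh38, matched by symbol for 36886 symbols, and start-site windows from RefSeq (GRCh38.p14). The fit was also run on simulated counts, with the same dispersion for all genes and a small set of genes changed in MC26 alone. That run did not cover changes as broad as those called here.

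The 10 genes and the pathway and marker lists were chosen with earlier results of these data known. Of the pathway list, genes were named that were called in either line against CT with a log2 fold change of 1 or more in size, plus IGF1, IGF2, IGFBP1, IGFBP4, FOXO1 and FOXO3. STC2 was added after its values were seen, to complete a group. Also named beyond these rules were INS, FOXO4 and the genes of the FOXO list that did not pass against CT. The same holds for pathway genes on chromosome 17 that rose in M1B26 against CT. Genes of similar pattern were taken from the 3 nearest to each of the 3 genes of widest range. Some items that these rules name are not reported here. The alternatives tried were DESeq2 1.42.0, scaling by RLE or by total counts alone, the unfiltered table, a filter at a mean of 50 counts, only the 6 libraries compared, a replicate block, leaving out each library, a pseudocount of 1 CPM for ratios, and the longest transcript as length.

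Equal replicate numbers were checked for pairing. The deviations of same-numbered libraries from their group means correlated, over genes, at -0.137 to 0.21 in 9 pairs, over 0.1 in 3 of them. Differently numbered pairs ran from -0.201 to 0.193. Between MC26 and M1B26, however, same-numbered pairs stood at 0.148, 0.07 and 0.157, and differently numbered ones ran from -0.173 to 0.048. Whether MC26 and M1B26 cultures were paired is thus not settled. The reported fit took no pairing, and a replicate block was tried as an alternative.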

Additional observations from a re-analysis of the deposited data

Results flagged for a closer look

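For 5 of the 9 tested genes the difference from CT was not the same in both transformed lines, as tested directly by edgeR's comparison of M1B26 with MC26 (log2 fold changes, M1B26 minus MC26). IGF1R was lower in M1B26 by a log2 fold change of -0.37 (adjusted p = 0.00124), having risen in both lines. IGF2R was lower by -0.65 (edgeR adjusted p = 9.02e-05), and against CT its fall passed the test in M1B26. IRS1 was higher by 1.35 (edgeR adjusted p = 0.000145), with a fall in MC26. IGFBP2 was higher by 2.61 (edgeR adjusted p = 0.000375), having fallen in both lines. IGFBP6 was higher by 0.86 (edgeR adjusted p = 0.000413), with a rise in M1B26. In each of the 5 all 3 libraries of M1B26 lay on 1 side of all 3 of MC26, and 39.5% of all genes tested differed between these lines. Sorting for BMPR1B, cloning in soft agar and the line itself cannot be told apart here. Groups of 3 libraries are too small for a test of single outlying libraries, and none was run.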

How the results depend on the processing

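Over 16 alternatives the number of the 9 genes called was 5 to 6 in MC26 against CT, 6 to 7 in M1B26 against CT and 5 in M1B26 against MC26, and 22 to 33, 30 to 40 and 14 to 25 genes of the pathway list were called (31, 37 and 21 in the reported fit). The log2 fold changes of genes near 0 changed sign. With total counts in place of scaling factors, IRS2 was at -0.050 in MC26 and -0.087 in M1B26 against CT, and IRS1 at -0.0079 in M1B26 against CT. With a mean of at least 50 counts, IRS2 was at -0.0083 in M1B26 against CT. Leaving out 1 library at a time, IRS2 ran from -0.0462 to 0.19 in MC26 and from -0.075 to 0.16 in M1B26 against CT, IRS1 from -0.027 to 0.23 in M1B26 against CT, and, in M1B26 against MC26, INSR from -0.039 to 0.17, IRS2 from -0.075 to 0.039 and IGFBP7 from -0.012 to 0.13. No setting put any of these past the threshold, and the cause was not tested. The log2 ratio of IRS1 to IRS2 in M1B26 against CT ran from -0.098 to 0.18 without 1 library.

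With the longest transcript as length, the IGFBP6 shares of CT, MC26 and M1B26 were 71.9%, 49.5% and 60.2%, and those of IGFBP7 were 23.0%, 49.6% and 34.2%, which follows from the other lengths. The count of FOXO factors and targets called between M1B26 and MC26, 5, was 2 with total counts, 9 without a filter, 1 with only the 6 libraries compared, and 1 to 8 without 1 library. The calls of IGFBP3, STC1, SOCS1 and PHLPP2 that were lost are given beside their values. With the replicate number as a block, 6, 6 and 5 of the 9 genes and 30, 35 and 19 genes of the pathway list were called in the order of comparisons above. No call of the 9 genes changed under the block, and SOCS1 in MC26 lost its call (edgeR adjusted p = 0.06435). IGFBP3, KLF15, PAPPA2 and SOCS1 were not tested under the stricter filter, nor were IGFBP3 and KLF15, in M1B26 against MC26, with only the 6 libraries compared. Depth limited IGFBP3, IGFBP5, KLF15, PAPPA2 and the ligands.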
